A study of Rattus norvegicus with 2 samples.

Results

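Described here are 85 gene probes whose signal was lower with OBP-801 than with saline in both the lateral and the ventral prostate of TRAP rats. They were chosen from the measured ratios. A probe could be chosen if its net signal, the spot intensity less the mean of the blank spots, reached 30 units in every one of the 4 channels, and 9013 of the 20174 gene probes did. It was taken if the log2 ratio of OBP-801 over saline, centred on the median of those 9013 probes, was at most -0.8 on both arrays and if its saline signal in the lateral lobe lay within -1 and 1 log2 units of that in the ventral lobe. A single very bright probe was set aside by the rule itself. The ratios and the lobe difference below are therefore descriptions of the choice and carry no test.

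The groups were OBP-801 and saline, each in the lateral and in the ventral prostate of male TRAP rats. Injections were intravenous, began at 6 weeks of age and were given 2 times a week for 8 weeks, with OBP-801 at 1 mg/kg in one label and at 1 mg with no body weight in others. Rats of both groups received a control diet, and all carried the TRAP transgene, in which a probasin promoter directs SV40 T antigen to the prostate epithelium. The tissue is labelled as prostate cancer of each lobe. RNA of each lobe was hybridised to a single 2-colour array, with OBP-801 RNA in Cy3 and saline RNA in Cy5 on both. With 1 array per lobe there were no replicates, how many rats each RNA came from is unknown here, and no array with exchanged dyes was analysed, so treatment and dye cannot be told apart for any probe. In bulk tissue, fewer cells of a type and less RNA per cell cannot be told apart either.

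Histone deacetylases remove acetyl groups from lysines of histones and of other proteins. Inhibitors of these enzymes raise histone acetylation, and transcripts in treated cells go both up and down, in part through secondary effects. The ventral and lateral lobes of the rat prostate are separate androgen-dependent glands, each with its own secretory epithelium and a smooth muscle stroma. The probes carry Ensembl rat gene identifiers, and 0 of the 9013 could be given a gene symbol from the files or from RefSeq's rat gene table. The genes are accordingly given by signal and rank, without roles, and neither the pathway lists nor the markers of the labelled tissue could be looked up.

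Across the 85 probes the log2 ratio ran from -1.84 to -0.80 in the lateral lobe, with a median of -1.07, and from -1.50 to -0.81 in the ventral lobe, with a median of -0.96. As folds, the median probe was 2.10-fold lower with OBP-801 in the lateral and 1.94-fold lower in the ventral prostate. At least 2-fold lower were 50 of the 85 in the lateral lobe, against 1.44% of all 9013 probes, and 31 in the ventral lobe, against 0.521%. In both lobes at once 23 were at least 2-fold lower, against 0.311%. Since the rule used these same ratios, nothing is read from the contrast with all probes. The limit of -0.8 was passed by 262 probes (2.91%) in the lateral lobe, by 175 (1.94%) in the ventral lobe and by 99 (1.1%) in both. The mirror limit of at least 0.8 in both lobes was passed by 174 probes (1.93%).

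**Figure D1:**
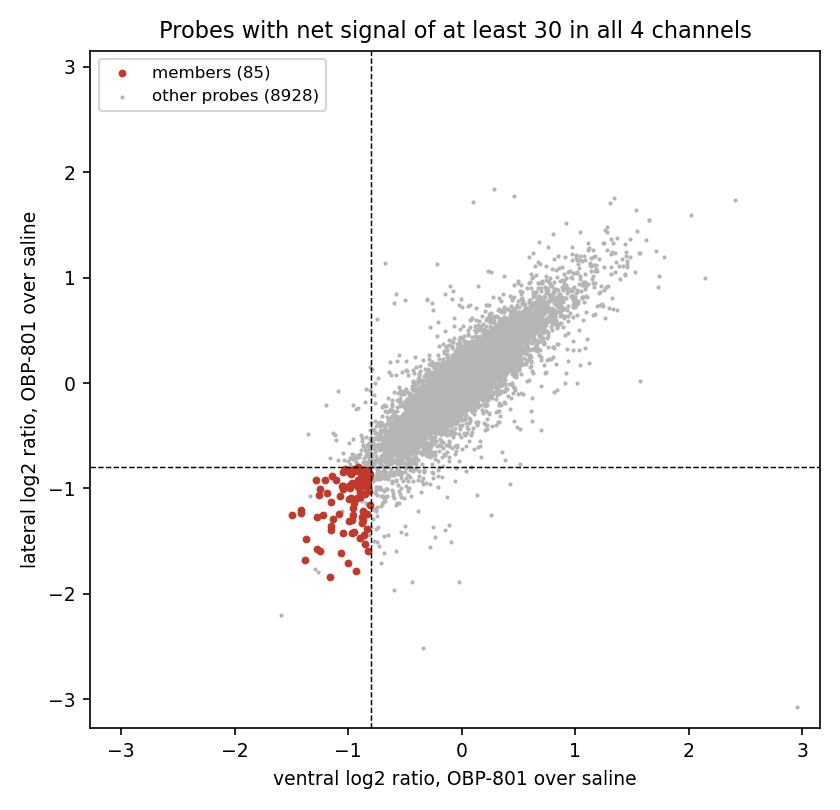
Each point is 1 of the 9013 probes, with its ventral log2 ratio of OBP-801 over saline on the horizontal and its lateral one on the vertical axis, and dashed lines at -0.8. The 85 members (red) fill the lower left corner down to -1.50 in the ventral and -1.84 in the lateral lobe, and grey points in that corner are the 14 probes left out by the other parts of the rule.

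The size of these ratios depends on the balance of the dyes. Over the 9013 probes the Cy3 signal was 1.95 times the Cy5 signal on the lateral and 2.08 times on the ventral array, and that factor is removed by the centring. For the chosen probes the 2 dyes gave nearly equal net signals. Before centring, their median log2 ratio was -0.11 in the lateral and 0.10 in the ventral lobe, and the uncentred ratio was above 0 for 27 of them in the lateral and 61 in the ventral lobe. Uncentred ratios below 0 were found for only 1.65% of all probes in the lateral and 0.399% in the ventral lobe. Lower here thus means lower relative to the bulk of the probes on the same array, and the arrays cannot show whether the total RNA output changed.

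The probe with the lowest ratios, ranked by the larger of its 2 values, was ENSRNOG00000028566. Its net signal was 54.4 units with OBP-801 and 89.0 units with saline in the lateral prostate, and 144 units with OBP-801 and 180 units with saline in the ventral prostate. After centring it was 3.20-fold lower in the lateral lobe (log2 ratio -1.68) and 2.61-fold lower in the ventral lobe (-1.38). With the offset of 50 units and loess, it was 1.87-fold lower in the lateral (log2 ratio -0.90) and 1.995-fold lower in the ventral lobe (-0.997), short of 2-fold in both. It gave less signal in the lateral than in the ventral lobe in either treatment. The next in rank was dimmer, with 44.3 units with OBP-801 and 63.5 with saline in the lateral lobe and 64.0 units with OBP-801 and 79.4 with saline in the ventral lobe, for log2 ratios of -1.48 in the lateral and -1.37 in the ventral lobe. The brightest of the first 8 in this ranking was the eighth, which had 4216 units with OBP-801 and 5137 with saline in the lateral lobe and 4274 units with OBP-801 and 4796 with saline in the ventral lobe. Its log2 ratios of -1.25 in the lateral and -1.22 in the ventral lobe differed by only 0.03 between the lobes. With the local background of each spot subtracted, its log2 ratio was -1.51 in the lateral lobe. It had no such ratio in the ventral lobe, where at least 1 channel was not above its local background.

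The brightest member was ENSRNOG00000037169. It gave 47202 units with OBP-801 and 47194 units with saline in the lateral lobe, and 46538 units with OBP-801 and 44202 units with saline in the ventral lobe. After centring, these net signals gave a ratio 1.95-fold lower in the lateral lobe (log2 ratio -0.96) and 1.98-fold lower in the ventral lobe (-0.98). The second brightest had 40001 units with OBP-801 and 40310 with saline in the lateral lobe, at a log2 ratio of -0.98. In the ventral lobe it had 39461 units with OBP-801 and 39349 with saline, at a log2 ratio of -1.05. None of these spots reached the detector ceiling of 65535 units, but the ceiling bounded their ratios. The highest OBP-801 net signal of any of the 9013 probes was 65471 units in the lateral and 65477 in the ventral lobe. With dye factors of 1.95 and 2.08, a centred ratio of 0 at these saline signals would need more than that. For these 2 probes a ratio below 0 was therefore fixed in advance, though passing the limit of -0.8 was not. These 2 probes stood far above the remaining members, of which the third brightest had 7733 units with OBP-801 and 6968 with saline in the lateral lobe and 7455 units with OBP-801 and 7318 with saline in the ventral lobe.

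The 2 brightest probes supplied most of the signal of the whole set. They held 62.7% of the members' net signal with OBP-801 and 61.4% with saline in the lateral lobe, and 56.2% with OBP-801 and 56.7% with saline in the ventral lobe. All 85 together made up 1.09% of the net signal of the 9013 probes with OBP-801 and 2.27% with saline in the lateral lobe. In the ventral lobe the shares were 1.16% with OBP-801 and 2.34% with saline. The other 83 alone contributed 0.407% with OBP-801 and 0.878% with saline in the lateral lobe, and 0.509% with OBP-801 and 1.01% with saline in the ventral lobe.

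**Figure D2:**
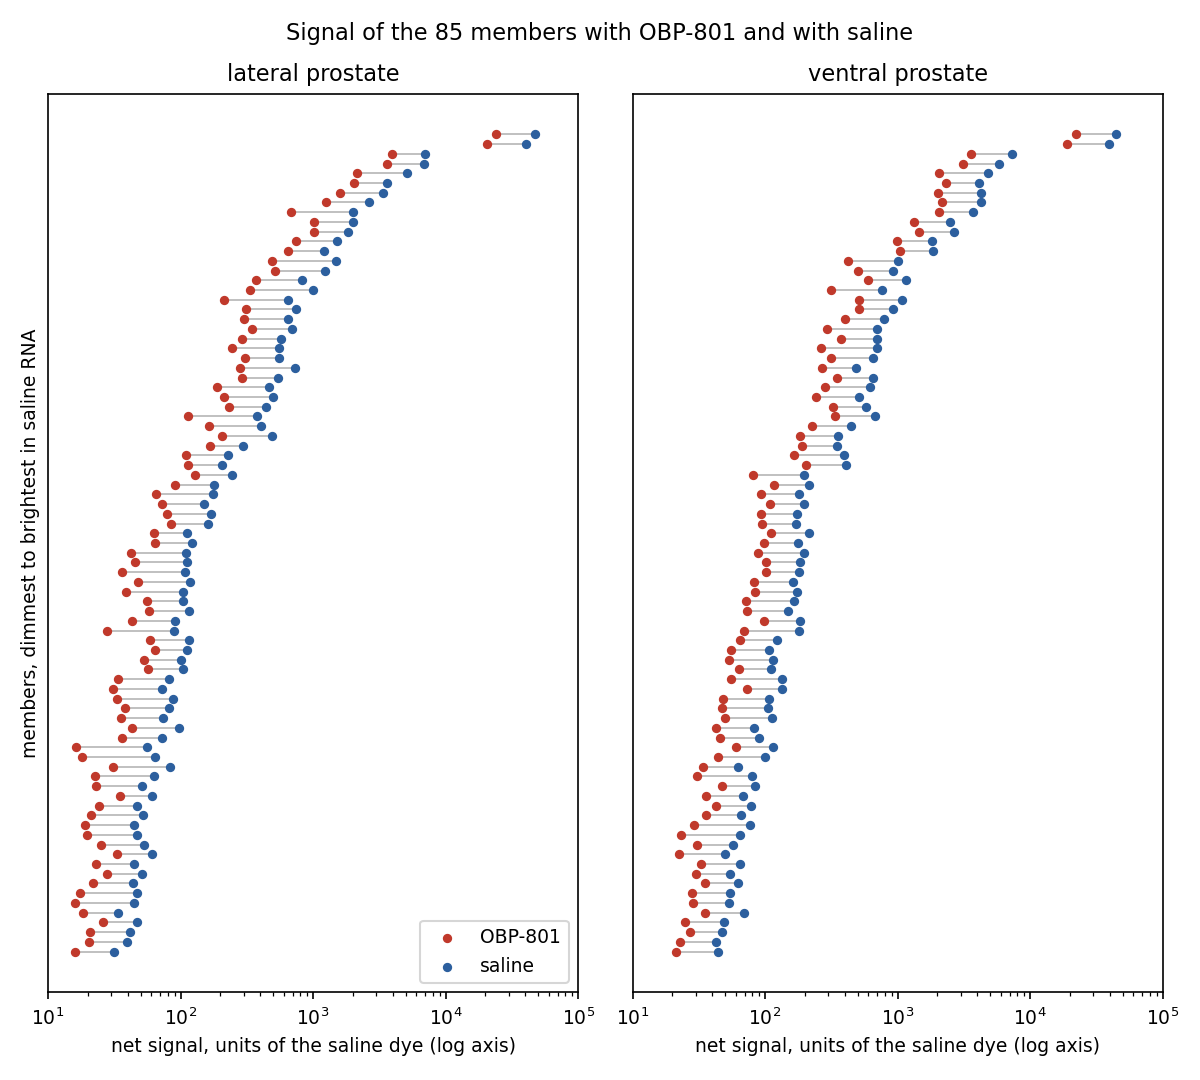
Each row is 1 of the 85 probes, ordered by saline signal, with its net signal (log axis) under OBP-801 in red and under saline in blue, lateral lobe on the left and ventral on the right. OBP-801 signals were divided by the array's dye factor (1.95 and 2.08), after which every red point lies left of its blue one, and 2 probes stand apart at the top with saline signals of 39349 units and more.

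Brightness was not part of the rule beyond the minimum of 30 units. The geometric mean of the saline signals of both lobes had a median of 147 units over the members and of 199 units over all 9013 probes. The members covered almost the whole range, from 37.2 to 45674 units. Fewer than 100 units were found for 28 members (1.05% of the probes in that class), 100 to 1000 units for 42 (0.816%) and more than 1000 units for 15 (1.25%). The median log2 ratio in the lateral lobe was -1.10 in the dim, -1.09 in the middle and -0.98 in the bright class, and in the ventral lobe it was -0.95 in the dim, -0.97 in the middle and -0.92 in the bright class. These medians are bounded by the limit of -0.8 that every member had to pass. With the normexp correction described below, which adds an offset of 50 units, the class medians from dim to bright were -0.52, -0.83 and -1.13 in the lateral and -0.48, -0.82 and -0.97 in the ventral lobe. Over all probes of these classes the median ratio before that correction ran from -0.0348 to 0.0294. The dim class had the wider spread, with an SD across probes of 0.45 in the lateral and 0.43 in the ventral lobe, against 0.41 and 0.41 in the bright class.

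**Figure D3:**
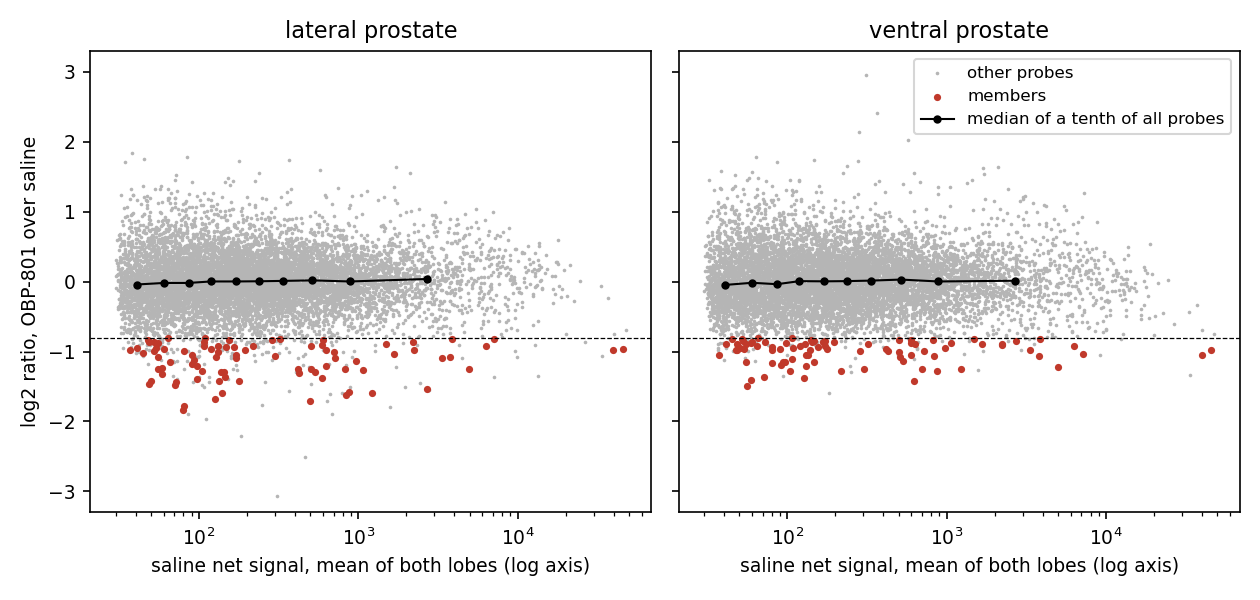
The log2 ratio of OBP-801 over saline is plotted against the saline net signal (geometric mean of both lobes, log axis), with the 85 members in red, all other probes in grey and the medians of 10 equal groups of probes as a black line. The black line stays near 0 in both lobes, and the members lie below the dashed line at -0.8 from the dim end to the bright end.

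Between the lobes, the lateral ratio was the lower one for 57 of the 85 members, against 50.1% of all probes, and the median difference of lateral minus ventral ratio was -0.10. For 80 members the 2 ratios lay within 1.5-fold of each other. In 5 members the lateral ratio was at least 1.5-fold below the ventral one, against 1.30% of all probes, and in 0 the ventral ratio was that far below the lateral one, against 0.721%. That last share is too small for 0 among 85 to stand out. The rule cut both ratios at -0.8, a limit passed by 2.91% of all probes in the lateral and 1.94% in the ventral lobe. The counts between the lobes are thus not independent of the choice. The brightest of these 5 had 1340 units with OBP-801 and 1985 with saline in the lateral lobe, against 4250 units with OBP-801 and 3696 with saline in the ventral lobe. Its log2 ratios were -1.53 in the lateral and -0.86 in the ventral lobe. The largest difference, -0.85, came from a probe with 31.6 units with OBP-801 and 55.7 with saline in the lateral lobe and 126 units with OBP-801 and 115 with saline in the ventral lobe. Its OBP-801 signal in the lateral lobe was just above the minimum of 30 units. At the other end was a probe with 250 units with OBP-801 and 242 with saline in the lateral lobe, at a log2 ratio of -0.92. In the ventral lobe it had 169 units with OBP-801 and 197 with saline, at a log2 ratio of -1.28.

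The members were on the whole weaker in the lateral than in the ventral lobe. In saline RNA the centred log2 difference of lateral minus ventral signal had a median of -0.24 and was below 0 for 66 of 85 members, against 50% of all probes. In OBP-801 RNA its median was -0.31, and it was again below 0 for 66. The rule held the saline difference between -1 and 1, and the OBP-801 difference follows from it and the 2 ratios, so neither is independent of the choice. At least 2-fold weaker in the lateral lobe under OBP-801 were 11 members, against 3% of all probes, and these 11 included all 5 whose lateral ratio was at least 1.5-fold below the ventral one. Since each lobe has its own array, lobe and array cannot be told apart here.

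**Figure D4:**
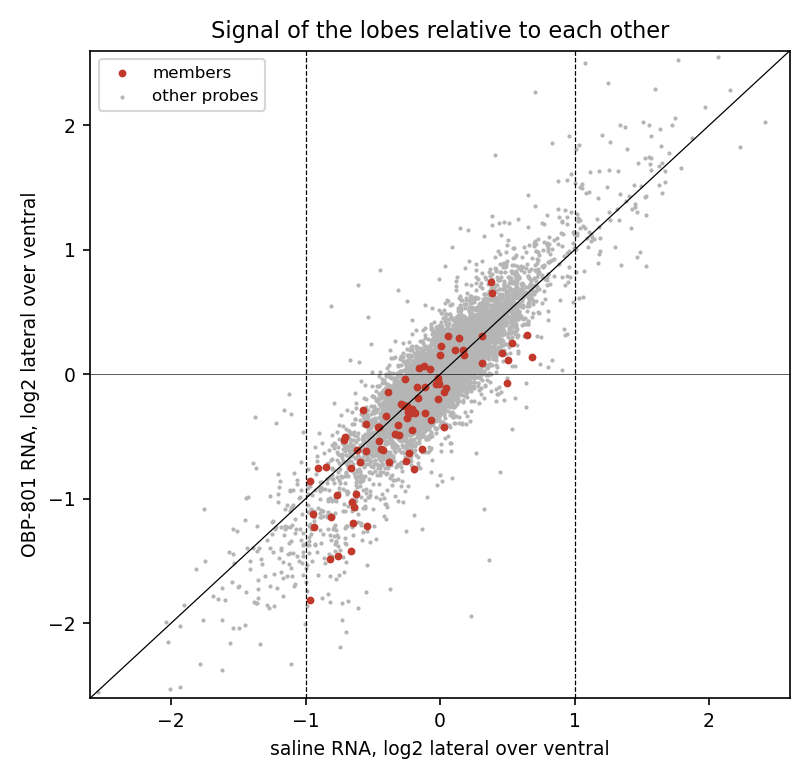
The log2 difference of lateral over ventral signal is shown in saline RNA (horizontal) and in OBP-801 RNA (vertical), each centred on the median of 9013 probes, with members in red, dashed lines at the limits of -1 and 1, and 18 other probes beyond the axes. Most red points lie left of 0, and those below the diagonal have the lower ratio in the lateral lobe.

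Of the 99 probes at or below -0.8 in both lobes, 14 were not taken. In 12 of them the saline signal was more than 1 log2 unit weaker in the lateral lobe and in 1 it was more than 1 unit stronger, and the last was the probe set aside. That probe had 30831 units with OBP-801 and 33174 with saline in the lateral lobe and 28426 units with OBP-801 and 34542 with saline in the ventral lobe, for log2 ratios of -1.07 in the lateral and -1.34 in the ventral lobe. The deepest of the 14 had 44.1 units with OBP-801 and 104 with saline in the lateral lobe, at a log2 ratio of -2.20. In the ventral lobe it had 223 units with OBP-801 and 323 with saline, at a log2 ratio of -1.60. The last 3 probes inside the limit had a larger log2 ratio of -0.8117, -0.8099 and -0.8005, and the first 3 outside it had -0.7968, -0.7959 and -0.7931. The edge of the set is therefore not a gap in the data.

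The technical error could be judged only from control spots. Over 24 spots each of 2 positive controls, the SD of the centred log2 ratio was 0.06 and 0.08 in the lateral and 0.08 and 0.12 in the ventral lobe, around means of 0.32 and -0.16, and of 0.11 and -0.10. The means of the controls departed from 0 by more than their SD in 3 of 4 cases. The 134 quality control spots with at least 30 units in all 4 channels, which are different probes, spread more, with SDs of 0.38 in the lateral and 0.52 in the ventral lobe. Distances of the members from 0 were set by the rule and are not measured against these SDs. The SD of the blank spots was taken with 5% left out at each end, which makes it smaller. Every member's net signal was at least 10.9 such SDs in lateral OBP-801 RNA and at least 18.6 in the other 3 channels. The scanner marked 0 of the 85 as faulty on either array. Members lay in all 24 blocks of spots, with 1 to 9 in a block, and 2 pairs of members were direct neighbours. The median ratio of a block ran from -0.06 to 0.11 on the lateral and from -0.12 to 0.17 on the ventral array. Centred within blocks, the members' median ratios were -1.06 in the lateral and -0.97 in the ventral lobe, and all 85 were below 0 in both, against 43% of all probes, an outcome fixed by the limit of -0.8 and the small block shifts. On that scale 27 were at least 2-fold lower in both lobes, against 0.344%.

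Other scalings that remove the dye balance gave ratios below 0 for all or most members, which their choice at -0.8 favours, and without centring 20 of 85 were below 0 in both lobes, against 0.266% of all probes. With loess on the net signals the medians were -1.06 in the lateral and -0.94 in the ventral lobe, and all 85 had ratios below 0 in both, as did 42.1% of all probes. At least 2-fold lower in both lobes were 23, against 0.311% of all probes. With a normexp correction that adds an offset of 50 units, followed by loess, the medians were -0.78 and -0.74, all 85 were below 0 in both lobes, against 41.9%, and 24 were at least 2-fold lower in the lateral lobe (0.632% of all probes), 13 in the ventral lobe (0.255%) and 10 in both (0.155%). The offset pulls dim probes towards 0, and under it 0 of the 28 members under 100 units were at least 2-fold lower in either lobe, against 0.0375% of all probes of that class in the lateral and 0% in the ventral lobe. Of the 15 members over 1000 units, 11 were at least 2-fold lower in the lateral lobe, against 2.01% of that class, and 7 in the ventral lobe, against 1.09%. The brightest member was 2.29-fold lower in the lateral and 2.16-fold lower in the ventral lobe on that scale. Although its spots did not reach the detector ceiling, its median-centred ratio could not have reached 0 under that ceiling, as described above. With the local background of each spot subtracted, 71 of the 85 had ratios below 0 in both lobes, against 36.4%, and 35 were at least 2-fold lower in both, against 0.588%. The ratio was above 0 for 9 members in the lateral and 4 in the ventral lobe. For 2 members in the lateral and 1 in the ventral lobe there was no ratio, since at least 1 channel was not above its local background. The ratio of the local background medians themselves, Cy3 over Cy5, was below its median over all probes for 69 members in the lateral and 72 in the ventral lobe, against 50% of all probes in each, and its centred log2 value had a median of -0.81 in the lateral and -0.72 in the ventral lobe over the members. With the local background subtracted, the third brightest member was among those with a ratio above 0, at 0.16 in the lateral and 1.41 in the ventral lobe.

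**Figure D5:**
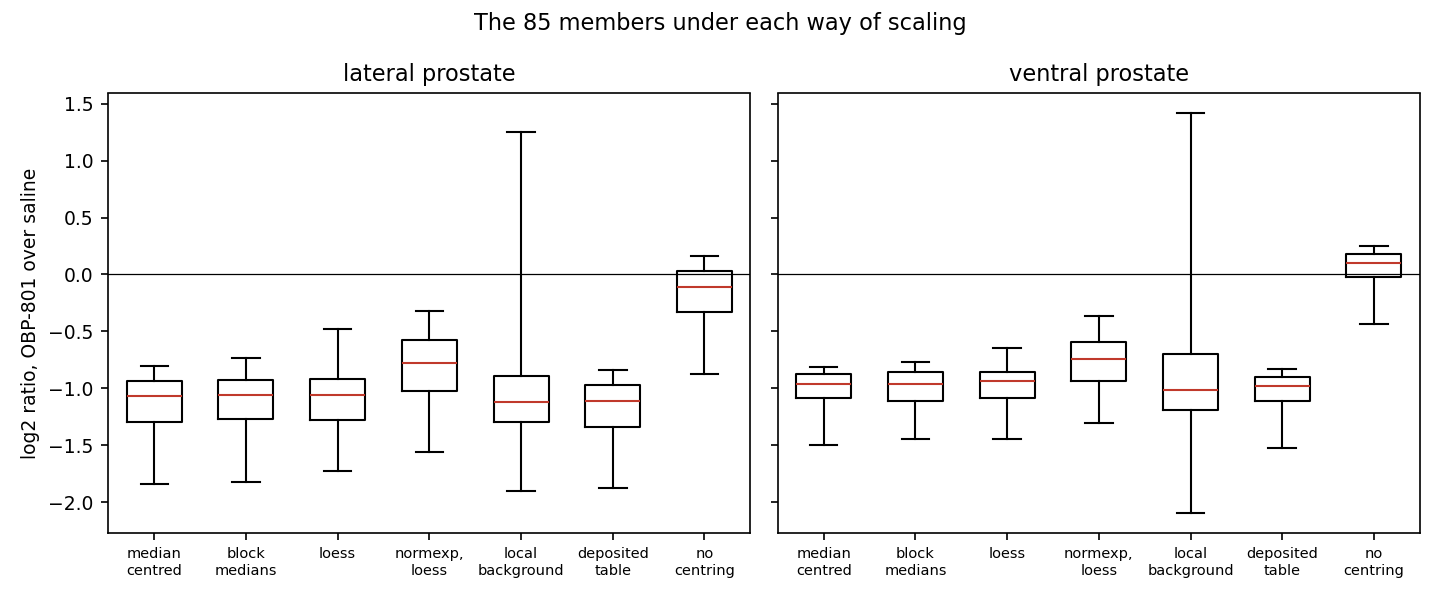
Boxes show the quartiles and medians of the members' log2 ratios of OBP-801 over saline under 7 ways of scaling, with whiskers to the lowest and highest probe, lateral lobe on the left and ventral on the right. All boxes lie below 0 except those with no centring, which lie around 0, and with local background the whiskers reach 1.25 in the lateral and 1.41 in the ventral lobe.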

How the data were processed

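The deposited scanner files hold the spot intensity and local background intensity of Cy5 (saline) and Cy3 (OBP-801) as medians, joined over 3 scanner gains by least squares per the file headers and not normalized. The deposited value table holds log2 values. Set against the scanner files, they equalled the centred log2 ratio of OBP-801 over saline used here, less a constant of 0.0403 (lateral) and 0.0245 (ventral). No header or label names the software that read the images. From the intensities, the mean of 5808 blank spots (5% left out at each end) was subtracted, and log2 ratios were centred on the median of the 9013 probes. Alternatives used limma 3.58.1 in R 4.3.3 (normexp with an offset of 50, and loess with a span of 0.3). Everything else was computed with pandas 2.3.3, scipy 1.17.1 and numpy 2.4.6 in Python 3.11.15. The selection code was run on simulated signals with independent noise on each array, the same dye factor for every probe and no detector ceiling. That run checks the code and not the error of these arrays.

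The members and lists were chosen with earlier results of these data known. The planned gene lists and symbols could not be used, since no identifier was paired with a symbol, and 2 probes are named by identifier, the lowest by its larger ratio and the brightest. Which 2 to name, the probes described without an identifier and the centring within blocks were chosen after the values were seen. No test was made, as each lobe had 1 array, and the number of arrays limits the precision.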

Additional observations from a re-analysis of the deposited data

Results flagged for a closer look

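The chips also hold spots that are no gene probes, and some of these gave signal. Among 521 spots labelled as quality control probes, 134 had a net signal of at least 30 units in all 4 channels, against 0 of 5808 blank spots and 0 of 809 spots described as having no probe. Their log2 ratio of OBP-801 over saline averaged 0.33 in the lateral and 0.43 in the ventral lobe. The lowest was -0.56 in the lateral and -0.52 in the ventral lobe, and 0 of the 134 were at or below -0.8 in both.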

How the results depend on the processing

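No paired analysis was possible because there was a single array for each lobe. The 85 members became 23 at a limit of -1.0 on the log2 ratio, 293 at -0.6, 198 with any positive net signal, 50 with at least 100 units in each channel (49 of them among the 85), 137 with the local background subtracted (51 among the 85) and 42 with normexp and loess (32 among the 85). They numbered 78 with loess on the net signals (67 among the 85), 84 with the median of the blanks, 98 without the lobe limit, 103 from the deposited table, and 85 with block medians, of which 76 were the same probes. The members' median log2 ratio moved to -0.78 in the lateral and -0.74 in the ventral lobe with normexp and loess, and to -0.11 and 0.10 without centring, where the ventral sign turned because the dye factor was left in. Of the 85, those at least 2-fold lower in both lobes numbered 23, against 35 with the local background subtracted, 10 with normexp and loess and 0 without centring. Without centring, ENSRNOG00000037169 had log2 ratios of 0.00025 in the lateral and 0.0743 in the ventral lobe. Under the other alternatives tried, these medians, this count and the median lobe difference in OBP-801 RNA (-0.31, and -0.29 after quantile normalization) stayed within 1 SD of the control spots or within 1.5 times. Dim members limit the precision, with net signals down to 31.1 units.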
